A study of Homo sapiens with 30 samples.

Results

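Promoters carrying SAP30, SIN3A and SIN3B together were examined in MDA-MB-231, a human line of triple-negative breast cancer. Their members were chosen from chromatin immunoprecipitation sequencing (ChIP-seq) peaks of the 3 proteins in parental cells. The deposited peak lists hold summits, the single bases at which a peak is highest. Summits of both replicates of a protein lying within 1000 bp of each other formed a consensus region, and consensus regions of the 3 proteins were merged where they overlapped after an extension of 500 bp at each side. Of 24456 merged regions, 5651 held all 3 proteins, and 5420 of these had a summit span that came within 1000 bp of an annotated start site, coding or long noncoding RNA. These 5420 promoter regions are the members described here. They were 22.2% of all merged regions and 95.9% of the regions with all 3 proteins.

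SAP30, SIN3A and SIN3B had been profiled in parental cells only. RNA polymerase II (Pol II), H3K4me3 and H3K9Ac had been profiled in parental cells and in SAP30-KO1, a CRISPR/Cas9 knockout of SAP30 that the study made by mixing several knockout cells after expansion. No difference in medium between the lines is stated, and no agent is named in the labels. The study treated edited cells with puromycin when it made the knockout lines, and the comparison here is with parental cells. Each of these 9 groups had 2 libraries. The study asked where the 3 proteins meet and what loss of SAP30 does to the chromatin there. Binding of SIN3A and SIN3B in SAP30-KO1 is not analysed here, so the members are sites of binding in parental cells. No label says that replicates came from separate cultures, so each test below measures only the spread between these libraries.

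The SIN3 complex is a corepressor built on a scaffold protein, SIN3A or SIN3B, which holds the histone deacetylases HDAC1 and HDAC2. It has no DNA-binding activity of high specificity and is brought to chromatin by sequence-specific factors such as REST and the MXD partners of MAX. SAP30 is a small subunit that contacts the scaffold. Although the complex removes acetyl groups, it is known to be present at many active promoters, which carry H3K4me3 and H3K9Ac on the nucleosomes after the start site.

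The depth of the 18 libraries is unknown, since only peak lists were used. The lists held 10861 to 54622 peaks. Each value below is therefore a rank, the place of a peak in its own list by the authors' score, from 0% for the best to 100% for the last. Ranks show order within a library and not an amount of protein. The cells carried the profile of the labelled line. VIM, CD44, CAV1, AXL and MSN, which mesenchymal breast cancer cells express, all had Pol II and H3K4me3 in 4 of 4 libraries. The luminal genes ESR1, PGR, FOXA1, GATA3 and CDH1 had Pol II in 0 of 4 libraries each, although H3K4me3 was present in 4 of 4 libraries at ESR1, PGR and FOXA1. The start sites of SAP30 itself, the targeted gene, kept a Pol II peak, at ranks of 10.2% and 5.40% in parental and 3.75% and 23.9% in SAP30-KO1 libraries. Peaks there give no check of the knockout, since editing need not remove a promoter.

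Sequences are shown first, because motif content followed the ranks of the 3 proteins differently. All coordinates are of GRCh37 and all sequences read 5′ to 3′ on the plus strand. E-boxes, CACGTG, which are bound by MAX with MYC or MXD proteins and by USF factors, lay within 150 bp of the SAP30 summit at 6 of the 8 members with the best mean rank over the 6 lists. Each line below gives the bases around the match nearest to the summit, with E-boxes in capitals. In order they lie at chr4:54232202-54232230, chr17:49230943-49230971, chr2:68385018-68385046, chr19:7587485-7587513 and chr11:60609550-60609578. The windows of SCFD2, NME1, PNO1 and MCOLN1 overlap an annotated UTR, and that of CCDC86 lies outside annotated exons.
SCFD2: tctccacagtaCACGTGgtcggcctctga
NME1: gtgctgcgaacCACGTGggtcccgggcgc
PNO1: gtgcagctgcgCACGTGtttcagccggca
MCOLN1: ggctaccgggtCACGTGaccgaggcacag
CCDC86: ggcgggggctgCACGTGcgcaggggtgtg
On the plus strand, the match centres lay at 20, 21, -33, -27 and 3 bp from the SAP30 summit. The 101 bases at SUPV3L1, upstream of its start site and outside annotated exons (chr10:70939629-70939729), held 2 E-boxes.
SUPV3L1: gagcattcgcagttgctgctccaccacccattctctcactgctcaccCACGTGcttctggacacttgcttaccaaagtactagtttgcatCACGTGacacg

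A different motif marked the best-ranked members of SIN3B. ETS factors bind CCGGAAG, and it is in capitals, on either strand, in windows of 4 members that hold it and are among those best ranked by SIN3B, chosen after their values were seen. These are chr11:46722219-46722247, chr12:124118213-124118241, chr12:114404159-114404187 and chr10:114206699-114206727. The EIF2B1 and VTI1A windows overlap an annotated UTR, and the other ones no exon.
ARHGAP1: cctccaacccaCTTCCGGccccaaacatg
EIF2B1: tccgcaccccaCTTCCGGcgcacttccgt
RBM19: gcctgacctgtCCGGAAGtaggcgtggct
VTI1A: tgttactgtcaCTTCCGGaggttcgccgc

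The E-box was present at 900 of the 5420 members (16.6%, 95% Wilson interval 15.6% to 17.6%) in windows of 301 bases around the better-ranked parental SAP30 summit. It was present at 7.78% (7.03% to 8.60%) of the 4475 promoter regions with SAP30 and SIN3B but no SIN3A, and at 8.06% (7.13% to 9.10%) of the 2941 with SAP30 and neither SIN3 protein. Windows of the same length around protein-coding start sites held it in 7.40%. The members' interval overlapped none of the others, and these intervals cover counting error only. Centring the windows on replicate 1 or replicate 2 alone gave 16.5% and 16.4%. The E-box is its own reverse complement, so each site was counted once.

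Of the 1036 E-box matches at members, 54.2% lay within 50 bp of the SAP30 summit, where an even spread over the window would give 34.1%. The count was 175 of 381 matches at the promoters with SAP30 and SIN3B and 124 of 248 at those with SAP30 alone, so it was above an even spread in each class. For the 1046 ETS matches at members the share was 28.7%, against 34.2% for an even spread. ETS matches were present at 16.4% of members and 16.2% of the promoters with SAP30 and SIN3B alone, whose intervals overlapped, and at 6.53% of those with SAP30 alone and 13.0% of start sites.

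The 3 proteins ordered the members differently along these motifs. Among members in the best decile of SAP30 rank, 33.9% (replicate 1) and 36.7% (replicate 2) held an E-box, falling to 8.86% and 8.12% in the last decile. By SIN3A rank the share fell from 32.5% and 35.4% to 10.1% and 12.2%. By SIN3B rank it was 19.0% and 20.3% in the best decile and 18.6% and 17.2% in the last. For the ETS motif the fall was largest by SIN3B rank, from 33.8% and 31.5% to 8.67% and 10.7%. By SAP30 rank its share fell less, from 20.1% and 19.6% to 15.5% and 13.5%. By SIN3A rank it was 18.5% and 18.1% in the best decile and 17.3% and 16.1% in the last. Both replicates of each protein gave the same picture. GC content moved with SIN3B rank, from a median of 65.3% and 65.8% in its best decile to 74.1% and 72.8% in its last, and less with SAP30 rank, from 68.4% and 67.8% to 68.8% and 70.1%. Its part in the motif shares was not tested. By the labels, SAP30 and SIN3A share inputs and SIN3B has separate ones. Differences between the proteins cannot be told apart from this split.

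**Figure D1:**
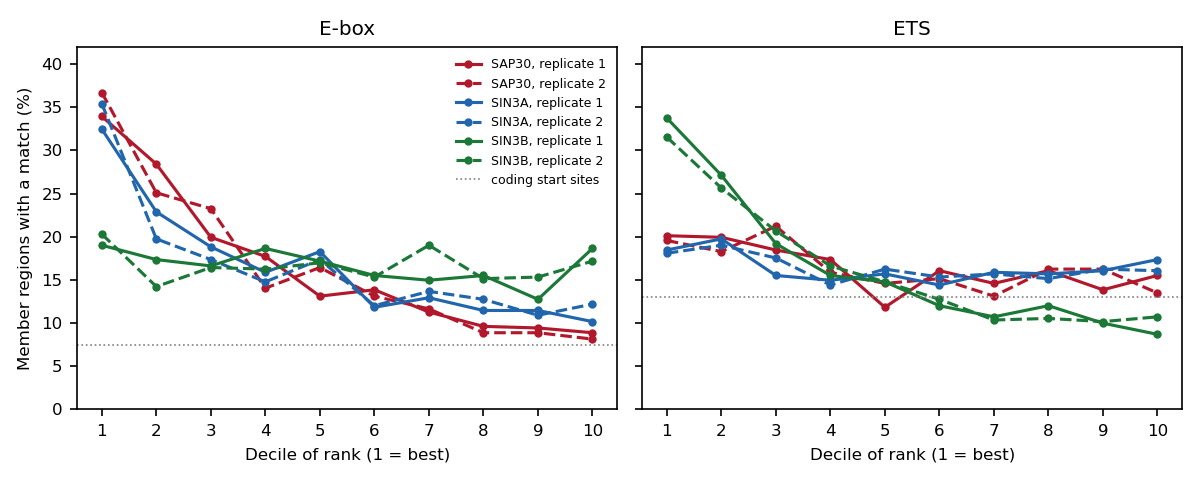
Share of member regions (vertical axis, percent) with an E-box (left) or ETS motif (right) within 150 bp of the SAP30 summit, by decile of the rank of SAP30, SIN3A or SIN3B in each replicate (horizontal axis, 542 members a decile). Lines are single libraries and the dotted line is the share of protein-coding start sites. The SAP30 and SIN3A lines start between 32.5% and 36.7% on the left and the SIN3B lines between 31.5% and 33.8% on the right.

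Most other motifs were less frequent at members than at start sites, or about as frequent, with E2F the exception. TATAAA was present at 1.79% of members against 7.48% of start sites, and CCAAT, which NFY binds, at 21.4% against 31.6%. Member windows were centred on the SAP30 summit and not on the start site, and the part of this was not tested. From the best to the last decile of rank, CCAAT fell for each protein in both replicates. By SAP30 rank it went from 35.1% and 34.3% to 20.5% and 17.5%. By SIN3A rank it went from 29.5% and 28.0% to 18.3% and 16.6%, and by SIN3B rank from 27.5% and 29.0% to 16.6% and 17.5%. The AP-1 motif TGAGTCA was present at 2.55% of members, 5.63% of the promoters with SAP30 and SIN3B and 10.6% of those with SAP30 alone, against 3.42% of start sites. The SP1/KLF motif GGGCGGGG was present at 28.2% of members and 28.3% of start sites. The remaining motifs searched on both strands were GCGCATGCG (NRF1, 1.31% of members and 2.19% of start sites), AAGATGGCG (YY1, 2.73% and 2.66%), TGACGTCA (CRE, 1.94% and 2.08%), TTTCCCGC (E2F, 2.62% and 1.84%), ACTACAATT (ZNF143, 0.0923% and 0.366%) and AGGGGGCG (CTCF core, 9.58% and 9.93%). The SP1/KLF and CTCF letters can overlap each other. A match is a description of the letters and not a sign of binding. Members were richer in CpG. Their median GC content was 70.4% and their median ratio of observed to expected CpG was 0.869, compared with 67.8% and 0.812 at the promoters with SAP30 and SIN3B, 68.4% and 0.762 at those with SAP30 alone, and 64.1% and 0.764 at start sites.

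Member regions were mostly promoters of protein-coding genes. Of the 5420, 5255 were named by a coding gene and 165 by a long noncoding RNA gene. Coding genes started on both strands at 849 members (15.7%), compared with 7.62% and 2.38% of the promoters with SAP30 and SIN3B and with SAP30 alone. The span from the leftmost to the rightmost summit had a median of 1020 bp, compared with 731 bp and 120 bp in those classes, whose regions hold summits of fewer proteins. The widest was 21388 bp, at LINC-PINT on chromosome 7. The members farthest inside the window were NAA38, GLTPD2 and CSNK1G2, at 861, 971 and 981 bp from a start site, and the nearest regions outside it were at CTTN, SLC2A4RG and a noncoding RNA gene on chromosome 19, at 1035, 1053 and 1129 bp. Their ranks were mixed on both sides. CSNK1G2, the last one inside, had SAP30 ranks of 19.0% and 15.4% and SIN3A ranks of 60.9% and 49.0%, while CTTN, the first one outside, had 4.43% and 6.73% and 52.7% and 40.9%.

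The ranks of the proteins that chose the members were as follows. SAP30 was near the top of its lists, with medians of 8.77% and 8.98% in replicates 1 and 2. For SIN3A the medians were 31.4% and 31.8%, and for SIN3B 16.04% and 17.9%. The SIN3A lists were the shortest, with 11115 and 10861 peaks, so ranks are not on 1 scale between proteins. Over the 5420 members the ranks of the 2 SAP30 libraries had a Spearman correlation of 0.78, those of SIN3B 0.72 and those of SIN3A 0.45. Between proteins the correlation was 0.52 to 0.62 for SAP30 with SIN3A, 0.30 to 0.33 for SAP30 with SIN3B and 0.24 to 0.26 for SIN3A with SIN3B. All points share the libraries and their depth, and members were selected on these ranks, so the values are descriptions. SAP30 and SIN3A summits were also closer to each other, at a median of 71 and 72 bp in the 2 replicates, than SAP30 and SIN3B summits, at 138 and 132 bp. The labels give SAP30 and SIN3A shared inputs and SIN3B its own. These contrasts in correlation and distance cannot be told apart from that split.

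The 8 members with the best mean rank were at TRMT1, SCFD2, NME1, PNO1, NOL8, MCOLN1, SUPV3L1 and CCDC86. TRMT1 encodes a tRNA methyltransferase, NME1 a nucleoside diphosphate kinase, PNO1 and NOL8 factors of ribosome assembly, MCOLN1 a lysosomal cation channel and SUPV3L1 a mitochondrial RNA helicase. At NME1 (start site at 49231026 on chromosome 17), the SAP30 ranks were 0.0772% and 0.0514%, those of SIN3A 0.0630% and 0.359%, and those of SIN3B 0.943% and 1.94%. The marks of this strongly ranked member were far from the top. Its Pol II ranks were 46.6% and 41.6% in parental and 72.3% and 86.3% in SAP30-KO1 cells, and its H3K4me3 ranks 16.4% and 27.6% in parental and 36.9% and 35.6% in SAP30-KO1 cells. The lines did not overlap for either mark there. Its H3K9Ac ranks were 22.1% and 21.1% in parental and 17.4% and 14.9% in SAP30-KO1 cells, in the opposite direction.

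CCDC86 (60609586 on chromosome 11) gave a like picture of strong binding and moderate marks. SIN3A there ranked at 0.0180% and 0.0368%, whereas Pol II ranked at 51.4% and 45.8% in parental and 61.4% and 57.6% in SAP30-KO1 cells. At NOL8 (95087876 on chromosome 9), SAP30 ranked at 0.0372% and 0.00857%, and Pol II at 23.6% and 18.6% in parental and 30.7% and 42.05% in SAP30-KO1 cells. TRMT1 (13227554 on chromosome 19) stood apart by its marks. It had SIN3B ranks of 0.00380% and 0.0135%, the best mean of any member, but no H3K4me3 summit within 1000 bp in any library, the nearest being 1828 to 1955 bp away.

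Members with an E-box ranked lower for every mark than those without it. The median Pol II rank of the 900 members with an E-box was 24.3% and 22.5% in parental and 22.7% and 23.9% in SAP30-KO1 libraries, against 19.6% and 17.7%, and 18.3% and 19.5%, for the 4520 without. For H3K4me3 the difference was 3.36 to 4.82 points and for H3K9Ac 1.37 to 1.66 points, in the same direction in 4 of 4 libraries of each.

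Among members chosen after their values were seen, the best-ranked site of SAP30 was also that of SIN3A. It lay near NPAS4 (66188506 on chromosome 11), a transcription factor gene induced by activity in neurons, with a rank of 0% in both SAP30 and both SIN3A libraries. The next sites of SAP30 were at SHCBP1, BOP1, EEF1A1 and UNG. EEF1A1, encoding an elongation factor of translation, showed that the proteins could part. SAP30 ranked there at 0.0200% and 0.00572% but SIN3A at 32.8% and 48.0% and SIN3B at 19.2% and 19.4%. At MRPL13, encoding a mitochondrial ribosomal protein, SIN3B ranked at 0.0228% and 0.00897% but SAP30 at 13.5% and 14.7%.

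Summits were placed against the start site at the 3261 members with start sites on only 1 strand. The site used was that nearest the middle of the member's summit span, coding genes first. The closeness of the 3 proteins to it is therefore partly set by this choice. The 3 proteins lay just downstream. The median SAP30 summit was at +74 and +67 bp in the 2 libraries, that of SIN3A at +63 and +54 bp and that of SIN3B at +23 and +66 bp, so the SIN3B libraries differed between themselves by more than SAP30 and SIN3A did. Pol II peaked at +24 to +27 bp in the 4 libraries, close to where paused polymerase is known to sit. H3K4me3 summits lay at +193 to +215 bp and H3K9Ac summits at +220 to +228 bp, on the side of the gene body at 88.5% to 89.7% and 80.6% to 82.1% of members with such a summit. Parental and SAP30-KO1 ranges overlapped for each of the 3 marks. By their medians, SAP30 and SIN3A summits lay between those of Pol II and of the histone marks.

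**Figure D2:**
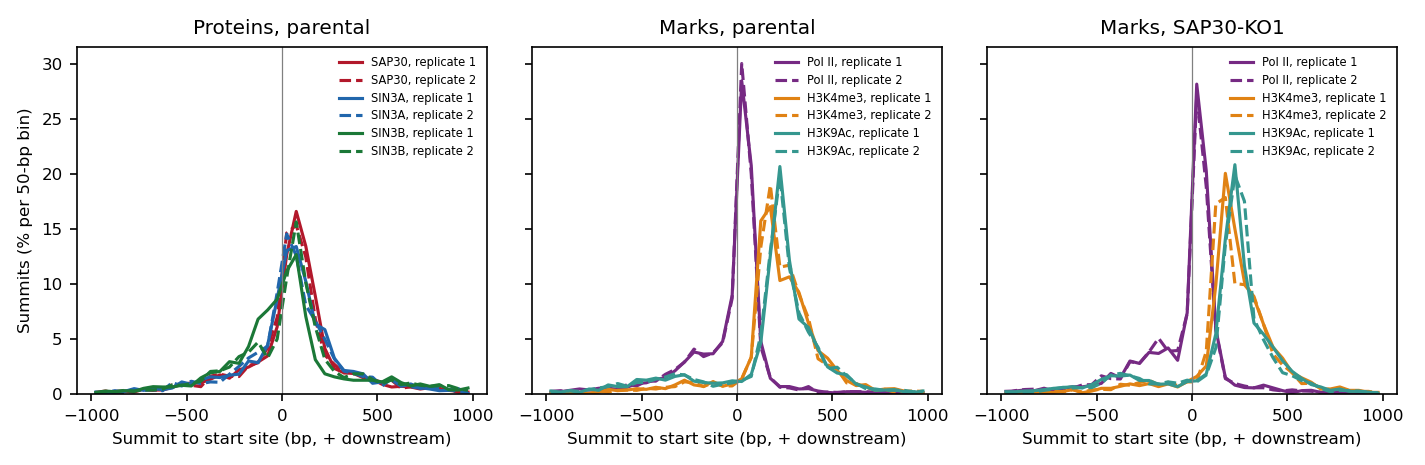
Position of the best summit of each library against the start site (horizontal axis, bp, positive values downstream) as a share of summits per 50-bp bin (vertical axis), for the 3261 members with start sites on 1 strand. The start site used is the one nearest the middle of the member's summit span, coding genes first. Solid and dashed lines are replicates 1 and 2. The Pol II lines peak just after the start site, those of the 3 proteins at medians of +23 to +74 bp, and the histone marks at +193 to +228 bp in both lines.

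Nearly all members carried all 3 marks. In 5189 of 5420 (95.7%), a summit of Pol II, H3K4me3 and H3K9Ac lay within 1000 bp in every one of the 12 libraries of the marks. A Pol II peak was present in both parental libraries at 98.9% of members, an H3K4me3 peak at 99.6% and an H3K9Ac peak at 99.4%. By library the Pol II share was 99.1% and 99.3% in parental and 98.5% and 96.9% in SAP30-KO1 cells (99.2% ± 0.157 and 97.7% ± 1.16, SD, n = 2 each), with both knockout libraries below both parental ones (exact permutation test, two-sided, p = 0.333). This is the smallest p that 2 libraries against 2 can give, so no difference between the lines can pass 0.05 in this test. The H3K4me3 share was 99.7% ± 0.0652 and 99.8% ± 0.0261 (exact permutation p = 1, n = 2 each), and the H3K9Ac share was 99.5% ± 0.0130 and 99.5% ± 0.0391 (exact permutation p = 0.667, n = 2 each). In a population of cells, fewer cells with a peak and less signal per cell cannot be told apart.

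By rank, the marks set the members apart from the other promoters bound by SAP30. The median Pol II rank at members was 20.3% and 18.4% in parental and 19.1% and 19.998% in SAP30-KO1 libraries. Its difference from the promoters with SAP30 and SIN3B, where a negative value means a better rank at members, was -12.4 points on average (-13.1 to -11.6 over 4 libraries, exact sign-flip permutation test, two-sided, p = 0.125, the smallest that 4 libraries allow). For H3K4me3 the median ranks at members were 17.0% and 18.4%, and 19.2% and 17.4%, with a difference of -12.1 points (-13.6 to -11.1, exact permutation p = 0.125, n = 4). For H3K9Ac they were 8.90% and 9.13%, and 9.44% and 9.22%, with a difference of -4.71 points (-5.05 to -4.35, exact permutation p = 0.125, n = 4). Against promoters with SAP30 alone the difference was -32.2 points (Pol II), -34.4 (H3K4me3) and -23.6 (H3K9Ac), negative in 4 of 4 libraries each. Only 52.2% of them had Pol II in both parental libraries, whereas 82.7% had H3K4me3. At promoters with SAP30 and SIN3B, peak presence was close to that at members. There 94.0% had Pol II in both parental libraries, 97.1% H3K4me3 and 98.7% H3K9Ac, against 98.9%, 99.6% and 99.4% of members. The SIN3A lists were the shortest of the 3 proteins, and the part of list length in these differences was not tested. The best peak of a mark was sought over each region's summit span and 1000 bp beyond it, so wider regions covered more bases. The median span was 1020 bp at members, 731 bp with SAP30 and SIN3B and 120 bp with SAP30 alone. The part of region width was not tested either.

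**Figure D3:**
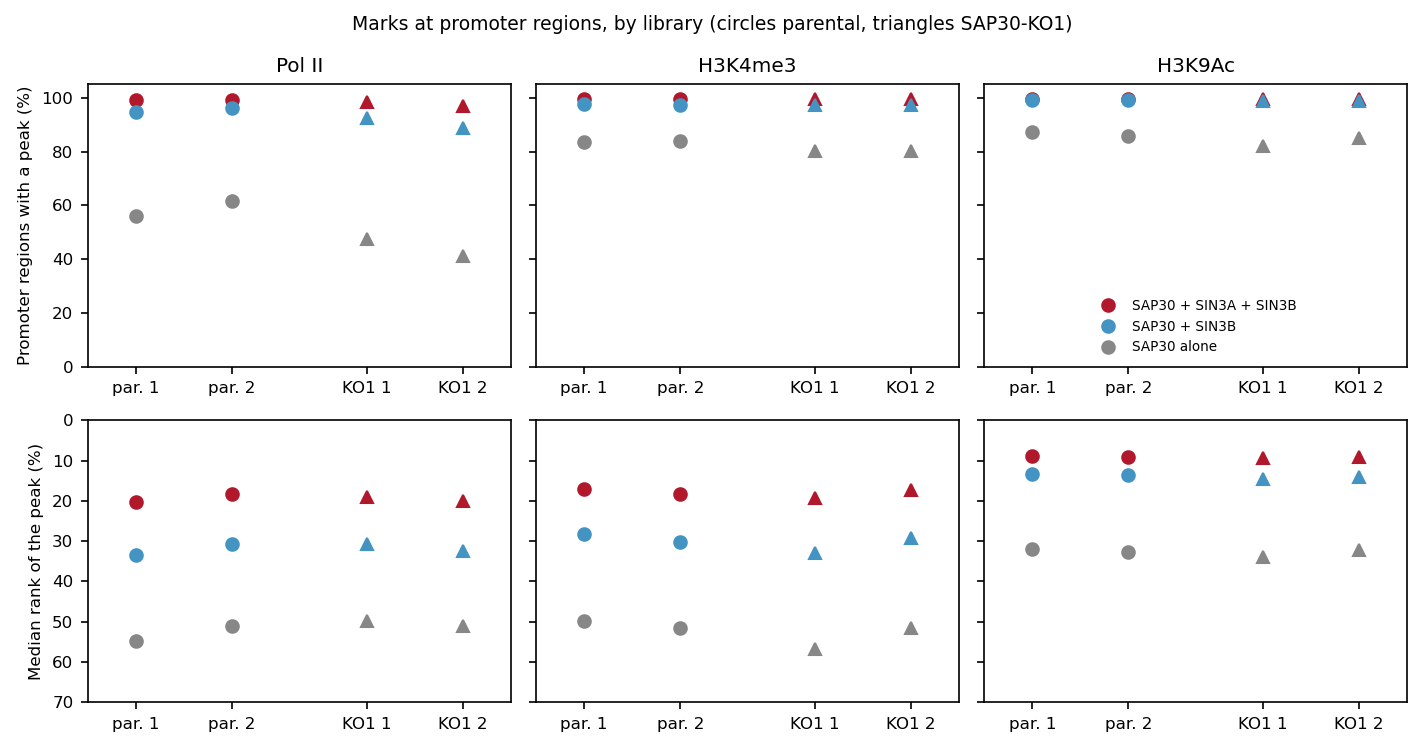
Share of promoter regions with a peak (upper row, percent) and median rank of that peak (lower row, percent, best at the top) for Pol II, H3K4me3 and H3K9Ac in each library (horizontal axis, parental replicates 1 and 2 and SAP30-KO1 replicates 1 and 2). Colours separate the 5420 members from the 4475 promoters with SAP30 and SIN3B and the 2941 with SAP30 alone. Members lie above both other classes in every panel, with mean differences in median rank of -12.4, -12.1 and -4.71 points against the SAP30 and SIN3B class.

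At 5 members (0.0923%) no library held a peak of any of the 3 marks. These were at NPAS4, L1CAM, XKR7, MIR7-3HG and TP73-AS3, named after their values were seen. L1CAM is a neural adhesion molecule and MIR7-3HG is the host gene of a microRNA of neuroendocrine tissue. The nearest Pol II summits lay 16882 to 44770 bp away at NPAS4 and 9988 to 10583 bp away at L1CAM, and the nearest H3K4me3 summits 16798 to 16811 bp and 9818 to 10372 bp away. All of these but TP73-AS3 held both conserved blocks of an RE1, the element through which REST silences neuronal genes outside neurons. The pattern searched on both strands was CAGCAC, then 3 bases, then GGACA, and it is in capitals below. It was added after the unmarked members had been seen. The 101 bases at NPAS4 (chr11:66189141-66189241) and the 29 at L1CAM (chrX:153140955-153140983) lie outside annotated exons, those at XKR7 (chr20:30556388-30556416) in a coding exon and those at MIR7-3HG (chr19:4769580-4769608) in a noncoding exon.
NPAS4: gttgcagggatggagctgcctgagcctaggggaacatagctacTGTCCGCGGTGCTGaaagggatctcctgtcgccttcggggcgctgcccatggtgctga
L1CAM: ggttcgcTGTCCCTGGTGCTGaaatcgcc
XKR7: ccgccatCAGCACCAAGGACAgcgccggc
MIR7-3HG: ttttcttCAGCACGAGGGACAgctctcca

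The RE1 letters were rare, at 9 of 5420 members (0.166%, Wilson interval 0.0874% to 0.315%), 0.476% of promoters with SAP30 alone and 0.0786% of start sites. The other 5 members with them, at MUL1, C3orf14, RNF213, ECSIT and a noncoding RNA gene on chromosome 19, had H3K4me3 and H3K9Ac in 4 of 4 libraries. At the unmarked members the SAP30 summit lay 753 bp after the start site of NPAS4, 293 bp after that of L1CAM, 444 bp after that of XKR7 and 415 bp after that of MIR7-3HG, farther than the median member. Their mean ranks over the 6 lists were 0.982%, 21.0%, 25.2% and 17.8%.

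Each mark taken by itself, Pol II was missing from all 4 libraries at 27 members, H3K4me3 at 10 and H3K9Ac at 14. These sets overlap, and each includes the 5 members without any mark. The nearest Pol II summit was 2601 to 215793 bp from the 27, and over 10000 bp from 23 of them. The genes of this paragraph were named after their values were seen. FOXJ1, the master regulator of motile ciliogenesis, CFAP54 and CFAP299, which encode ciliary proteins, and DNAAF3, an assembly factor of dynein arms, had no Pol II peak but kept H3K4me3 in every library. The 27 also included other kinds of genes, such as BMF, SLC2A4 and MAPK11, and the share of ciliary genes was not counted. FOXJ1 had H3K4me3 ranks of 61.4%, 67.3%, 66.7% and 64.4% in parental replicates 1 and 2 and SAP30-KO1 replicates 1 and 2. At CFAP54 these ranks were 28.6%, 29.3%, 27.6% and 28.5%. The 10 members without H3K4me3 included TRMT1 and TNPO2, where a summit lay 1426 to 1955 bp away in every library, just beyond the reach used here. For H3K9Ac, NEAT1, YY1, NAA38, TNS2, TNPO2 and POLR1G likewise had a summit at 1019 to 2074 bp.

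Gene groups differed widely in how often they had a member. Of 20090 protein-coding genes, 6210 (30.9%) had a member at a start site. Apart from the 5 genes expressed in this line, all of which had one, the share was highest for mitotic genes, with 33 of 34, and the one without a member was ESPL1, which encodes separase. Genes of DNA replication had a member at 34 of 44, aminoacyl-tRNA synthetases at 29 of 37, cytosolic ribosomal proteins at 53 of 79, proteasome subunits at 26 of 39 and core proteins of the spliceosome at 33 of 51. Translation initiation factors had one at 32 of 55, and Pol II subunits with general initiation factors at 26 of 44. For mitochondrial ribosomal proteins the count was 35 of 78 and for nuclear subunits of oxidative phosphorylation 29 of 75, and most of the others, 40 and 45, lay at promoters with SAP30 and SIN3B. The groups were chosen with earlier results of these data known, and the counts carry no test.

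Mitotic genes were also near the top of the lists, by ranks that the rule used. Their median rank was 1.85% for SAP30, 10.1% for SIN3A and 10.6% for SIN3B, against 3.05%, 19.3% and 11.4% for DNA replication and 9.94%, 37.8% and 8.58% for cytosolic ribosomal proteins. KIF20A, a kinesin of cytokinesis, had SAP30 ranks of 0.0543% and 0.0800% and SIN3A ranks of 0.459% and 0.193%. BIRC5 (survivin), AURKB (the Aurora B kinase) and KIF11 (a spindle kinesin) followed. The E-box was present at 1 of 33 mitotic and 3 of 34 replication genes with a member, beside 16.6% of all members. In the replication group the best ranked were RRM2, a subunit of ribonucleotide reductase, MCM7 and MCM10 of the replicative helicase and its loading, and ORC6 of the origin recognition complex. MCM10 had SAP30 ranks of 0.00572% and 0.0372%.

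By SIN3B rank the order of groups was different, and groups are compared here within 1 protein only. The best median SIN3B rank was that of mitochondrial ribosomal proteins, 5.41%, followed by Pol II subunits with initiation factors (6.16%), proteasome subunits (6.57%), aminoacyl-tRNA synthetases (7.56%) and core spliceosome proteins (7.56%). By SAP30 rank these groups had medians of 8.64%, 8.83%, 8.98%, 4.504% and 8.88%, all behind the mitotic and replication genes. VARS1, the valine tRNA synthetase gene, had SAP30 at 0.146% and 0.289% and SIN3B at 5.98% and 4.97%.

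The complexes under study had members at their own genes. Of 24 SIN3 complex subunits, 17 had one, the best ranked being ING2, KDM5B, OGT and BRMS1. ING2 reads methylated H3K4 and KDM5B removes that methylation. SAP30 and SIN3A had members at their own start sites, and SIN3B had none. Of 20 COMPASS subunits, the H3K4 methyltransferase complexes, 12 had one, HCFC2, KMT2A, KMT2D and KMT2C ranking best.

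Lineage and secreted genes rarely had a member. Keratins had none in 55, olfactory receptors none in 399, collagens 3 in 44 (COL13A1, COL4A1 and COL4A2, the last pair from a shared promoter), HOX genes 1 in 39 (HOXD1), interleukins and chemokines 1 in 83 (IL11) and claudins 1 in 24 (CLDN6). None of the 5 luminal genes had one. Of 9 genes the study followed, only IPO13 and RDX did. At 5 others the peak lists gave a consensus region of SAP30 but of neither SIN3 protein. This is a matter of peak calls in both replicates and does not show that the SIN3 proteins were absent. By ChIP-qPCR, the study reported enrichment of SAP30, SIN3A and SIN3B at PDGFD, CLDN1, RDX and ADM2.

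**Figure D4:**
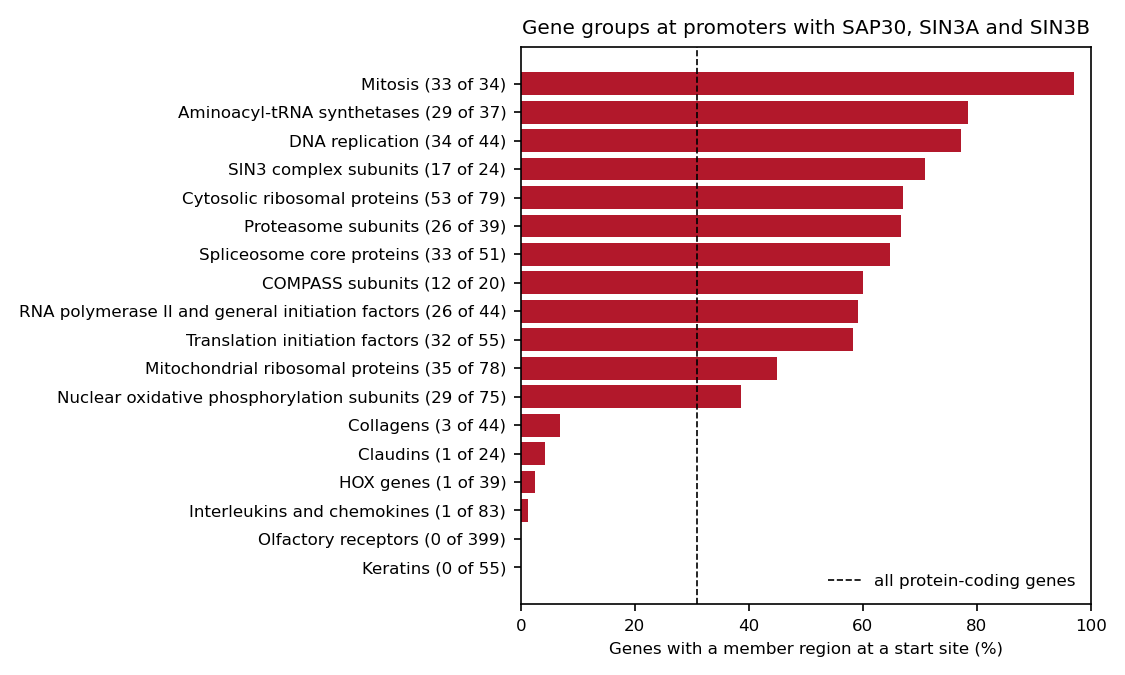
Share of genes of each group with a member region at a start site (horizontal axis, percent), with counts beside the names. The dashed line marks all protein-coding genes, 30.9%. Housekeeping and cell division groups lie above it and lineage groups below it.

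Called peaks of all 3 marks stayed in place at nearly all members in SAP30-KO1. Presence of a peak does not measure its amount. By signal, the study reported less Pol II and H3K4me3 in SAP30-KO1 at genes that it called coactivated, and more H3K9Ac at corepressed ones. A peak was called lost when both parental libraries and neither SAP30-KO1 library had a summit within 1000 bp of the member, and gained in the reverse case. Of 5362 members with Pol II in both parental libraries, 15 (0.280%) lost it, while 2.99% of all promoter regions of the 3 proteins did. Pol II was gained at 2 of 5223 members, against a background of 0.26%. H3K4me3 was lost at 0 of 5401 and gained at 0 of 5405 members, with backgrounds of 0.699% and 0.065%. H3K9Ac was lost at 1 of 5385 and gained at 2 of 5385 members, with backgrounds of 0.6% and 0.242%. Members also ranked better for each mark than the other promoters, and the parts of rank and of region width in these shares were not tested.

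The Pol II losses depended on the libraries. Judged without SAP30-KO1 replicate 1 there were 124, without SAP30-KO1 replicate 2 there were 38 and without parental replicate 1 there were 24. With an extension of 250 bp, gains outnumbered losses by 29 to 23, and among the better-ranked 50% of peaks there was 1 of each. Pol II gains were 6 without parental replicate 1 and 4 without parental replicate 2 or without SAP30-KO1 replicate 2. For H3K9Ac, losses were 2 without parental replicate 1, 4 without SAP30-KO1 replicate 1 and 8 without SAP30-KO1 replicate 2, and gains were 7 and 6 without parental replicates 1 and 2 and 4 without either SAP30-KO1 replicate. For H3K4me3, 1 was lost without parental replicate 2 or without SAP30-KO1 replicate 2, and 4 and 1 were gained without parental replicates 1 and 2. The shares over all promoter regions are not given for these settings, so the counts are not read as particular to members.

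The members that lost Pol II had parental peaks in the middle or lower part of the lists, and no knockout summit nearby. The best ranked was at MUL1 (20834644 on chromosome 1), a ubiquitin ligase of mitochondria, at 46.3% and 45.9% in parental cells, with the nearest SAP30-KO1 summits 21491 and 21506 bp away. HAUS7, of the augmin complex on spindle microtubules (152736034 on chromosome X), had ranks of 54.9% and 62.1%, and TTC5 (20774110 on chromosome 14) 76.5% and 40.7%. CNTN5 (98891679 on chromosome 11), encoding a neural adhesion molecule, had ranks of 58.8% and 62.8%. A noncoding RNA gene on chromosome 14 (start site at 71288721) completed the best 5, at 57.3% and 59.0%. Over all 15 the nearest knockout summit lay 7092 to 278139 bp away. MUL1 kept its other marks, with H3K4me3 ranks of 16.2% and 14.3% in parental and 18.4% and 21.9% in SAP30-KO1 cells.

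At 4 of the 5 other changes, the opposite line held a summit just past the reach. CCDC39, a ciliary gene (180397277 on chromosome 3), gained Pol II at ranks of 44.1% and 57.6%, with the nearest parental summits 77249 and 77286 bp away. At JADE2 (133862327 on chromosome 5) Pol II was gained at 39.9% and 21.2%, but parental summits lay 1014 and 1110 bp away, just past the reach. The lost H3K9Ac peak at ZNF710 (4.51% and 7.74% in parental cells) had knockout summits 1684 and 1580 bp away. Those gained at FAM111A and SSBP4 had parental summits 1068 to 2032 bp away.

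The order of peaks within the lists was then compared. limma was fitted to normal scores of the ranks of all regions with a summit in all 4 libraries of a mark, with Benjamini-Hochberg adjustment. It called 0 of 5220 members with a Pol II region, 0 of 5366 with H3K4me3 and 0 of 5346 with H3K9Ac at an adjusted p under 0.05. Over all regions it called 0% of 11771, 0% of 16097 and 0% of 25658. At an unadjusted p under 0.05 there were 390 members (7.47%, all regions 8.82%) for Pol II, 598 (11.1%, all regions 9.07%) for H3K4me3 and 285 (5.33%, all regions 8.11%) for H3K9Ac. The smallest adjusted p of a member in limma was 0.383 (Pol II), 0.449 (H3K4me3) and 0.508 (H3K9Ac). Leaving out SAP30-KO1 replicate 1 gave 8 Pol II members called higher and 29 called lower in the knockout (0.706% of members fitted, against 0.897% of 12371 regions). Leaving out SAP30-KO1 replicate 2 gave 0 and 4 (0.0751%, against 0.238% of 13025 regions). In both cases the lone library was taken to vary like the other line.

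Members whose libraries did not overlap between the lines were counted as a description. For Pol II, 1226 of 5215 members (23.5%) ranked lower in both SAP30-KO1 libraries than in both parental ones, and 831 (15.9%) ranked higher. Over all 10281 promoter regions, which include the members, these shares were 24% and 15.7%, close to those of members. A random order of the libraries would give 16.7% in each direction. For H3K4me3, 1212 of 5400 (22.4%) ranked lower and 732 (13.6%) higher, against 29.7% and 10.7% over all promoter regions. For H3K9Ac, 1087 of 5374 (20.2%) ranked lower and 954 (17.8%) higher, against 22.7% and 16.3%. These percent ranks depend on the lengths of the lists. By place in the list, counted from 1 for the best peak, the shares lower and higher were 26.1% and 14.7% of members for Pol II (all promoter regions 27.0% and 14.2%), and 18.5% and 16.8% for H3K4me3 (21.9% and 15.7%). For H3K9Ac they turned around, to 16.5% lower and 21.6% higher (17.7% and 20.8%). Both H3K9Ac lists of SAP30-KO1, of 50862 and 50807 peaks, were shorter than both parental ones, of 54622 and 53651.

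Chromosome 11 moved with these counts. Of its 333 members with Pol II in 4 libraries, 43.5% ranked lower in SAP30-KO1 and 4.204% higher, with a median change of 7.15 points. For the 4882 on other chromosomes the shares were 22.1% and 16.7%, with a median change of 0.765 points. For H3K4me3, 43.3% of 356 members on chromosome 11 ranked lower, against 21.0% elsewhere, and for H3K9Ac 49.3% of 351 against 18.2%. Away from chromosome 11, the H3K9Ac members that ranked higher, 18.6%, were close in number to those that ranked lower, 18.2%. By place in the list, the shares lower on chromosome 11 were 45.9% (Pol II), 38.5% (H3K4me3) and 45.9% (H3K9Ac), against 24.7%, 17.1% and 14.4% elsewhere. The part of chromosome 11 in single members' changes was not tested. Shares over all promoter regions of chromosome 11 are not given, so its shift is not read as particular to members.

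**Figure D5:**
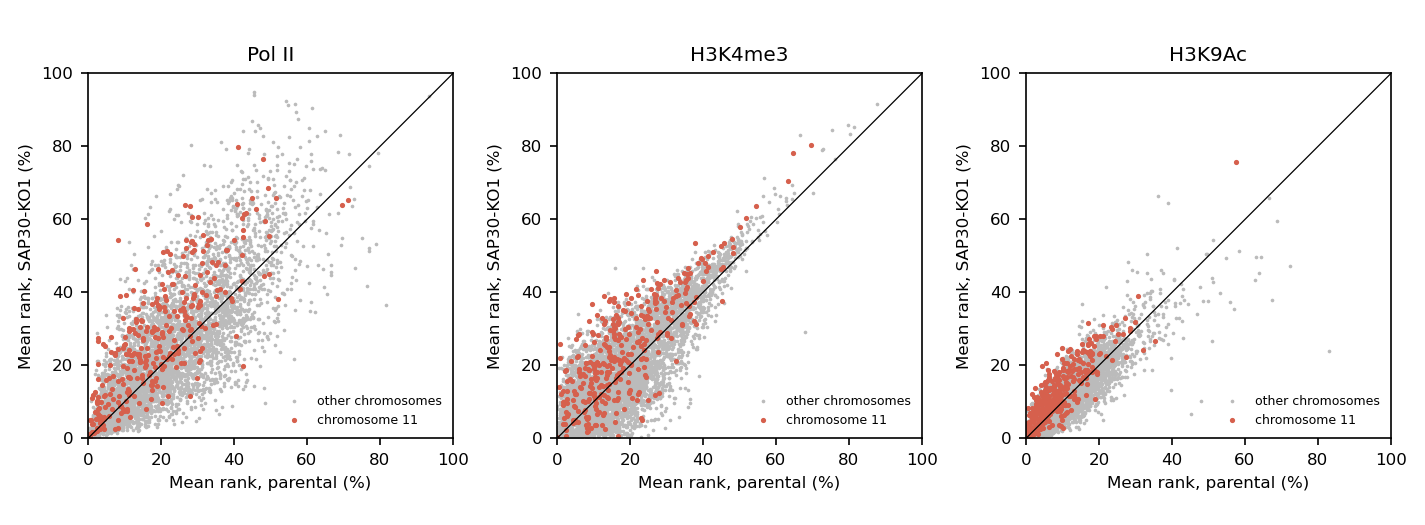
Mean rank of each member's peak in SAP30-KO1 (vertical axis, percent, 0 is best) against parental cells (horizontal axis, percent) for Pol II, H3K4me3 and H3K9Ac, with members on chromosome 11 in red and the line of equal rank in black. Points above the line rank lower in the knockout, as 43.5%, 43.3% and 49.3% of the chromosome 11 members did without overlap between libraries.

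The direction of the change in median rank over members depended on how rank was counted. As a percent, the Pol II median moved from 19.3% ± 1.33 to 19.5% ± 0.634 (SD, n = 2 each, exact permutation p = 1), and for H3K4me3 from 17.7% ± 0.926 to 18.3% ± 1.29 (exact permutation p = 0.667, n = 2 each). Both differences were within the spread between replicates. For Pol II the sign turned without parental replicate 2 (-0.72), without SAP30-KO1 replicate 2 (-0.23) and without chromosome 11 (-0.18), and for H3K4me3 without parental replicate 1 (-0.038) and without SAP30-KO1 replicate 1 (-0.29). For H3K9Ac the median went from 9.01% ± 0.163 to 9.33% ± 0.154 (exact permutation p = 0.333, n = 2 each), by 0.32 points, and by 0.12 points without chromosome 11. By place in the list this direction turned, from a median of 4861 and 4899 in parental to 4803 and 4687 in SAP30-KO1 libraries (exact permutation p = 0.333, n = 2 each), so no direction can be read for H3K9Ac. The H3K4me3 median turned as well, from places 4104 and 4110 to 3986 and 4064 (exact permutation p = 0.333, n = 2 each). The Pol II median went from places 4204 and 4230 to 4459 and 4425 (exact permutation p = 0.333, n = 2 each), without overlap between the lines.

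Set against the other promoter regions in the same library, the Pol II rank of members differed by -17.9 ± 0.654 points in parental and -15.97 ± 0.0318 points in SAP30-KO1 cells (exact permutation p = 0.333, n = 2 each). The other marks moved the opposite way. The difference went from -19.7 ± 0.490 to -21.0 ± 1.85 points for H3K4me3 (exact permutation p = 0.667, n = 2 each) and from -9.30 ± 0.121 to -9.77 ± 0.390 points for H3K9Ac (exact permutation p = 0.333, n = 2 each), the latter without overlap between the lines. The smallest p possible here was 0.333. These medians leave out regions without a peak. At the other promoters, the share with Pol II was 79.2% and 82.5% in parental and 74.8% and 70.3% in SAP30-KO1 libraries. The part of such missing peaks in the differences was not tested.

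Single members moved more than the median, with no call at the adjusted threshold. The largest Pol II fall without overlap between the lines was at BUD13 (116643703 on chromosome 11), a splicing factor gene, from 8.32% and 7.93% in parental to 39.9% and 69.0% in SAP30-KO1 cells. Its normal score changed by -1.92 (SE 0.380, limma adjusted p = 0.383). ZNF567, RFC5, TSFM and SLC4A11 came next. RFC5, of the clamp loader of replication, went from 15.3% and 18.7% to 30.7% and 96.0%, with the knockout libraries far apart from each other.

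The largest Pol II gain in rank was at GDAP1 (75262679 on chromosome 8), a mitochondrial gene mutated in a peripheral neuropathy, from 89.7% and 73.5% to 39.0% and 34.2% (change 1.93, SE 0.348, limma adjusted p = 0.383). A transcribed pseudogene, MFSD14CP, followed, at 51.1% and 45.7% against 13.1% and 6.34%, and then SIPA1L3, a protein-coding gene without a symbol that shares its member with ATP13A2 on chromosome 1, and TEF, a circadian transcription factor gene. In each of these both knockout libraries ranked above both parental ones. MFSD14CP is close in sequence to its parent genes, so its peak is uncertain.

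For H3K4me3 the largest falls were at STRN3, CEP57, CCT2, SELENOK and HSPA8, all within the best 3.55% of the parental lists. CEP57 and HSPA8 lie on chromosome 11. STRN3 (31495607 on chromosome 14), of the striatin phosphatase complex, went from 0.0125% and 0.0491% to 10.2% and 7.48% (change -2.17, SE 0.169, limma adjusted p = 0.449). HSPA8, the constitutive HSC70 chaperone gene on chromosome 11, went from 1.08% and 0.496% to 20.9% and 23.04%. The largest rises were at SPATA2, SFPQ, UBP1, ACTN4 and PTPN1. At SFPQ, a splicing factor gene, the rank went from 12.4% and 13.9% to 0.0820% and 0.146%, and at PTPN1, the gene of the phosphatase PTP1B, from 24.8% and 25.2% to 1.26% and 0.750%.

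For H3K9Ac, falls without overlap were largest at PRDM10, MAST2, SINHCAF, YAP1 and RSF1, and the knockout libraries lay far apart at PRDM10, MAST2 and SINHCAF. PRDM10, YAP1 and RSF1 lie on chromosome 11. PRDM10 went from 0.843% and 0.359% to 78.8% and 5.02%, and SINHCAF, itself a subunit of the SIN3 complex, from 9.75% and 9.81% to 81.7% and 19.5%. RSF1, a chromatin remodelling factor on chromosome 11, was even between replicates, from 0.769% and 0.552% to 10.3% and 6.14% (change -1.19, SE 0.224, limma adjusted p = 0.508). Rises were largest at ARID1A, CEP57L1, BBC3, PRKAR2A and CLCC1. ARID1A, of the SWI/SNF remodelling complex (27019727 on chromosome 1), went from 98.1% and 74.1% to 19.0% and 17.0% (change 2.57, SE 0.422, limma adjusted p = 0.508). BBC3, the gene of the cell death protein PUMA, went from 58.8% and 20.4% to 13.6% and 12.8%, with the parental libraries far apart.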

How the data were processed

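The deposited files are 18 lists of 1-bp ChIP-seq summits, 1 per library, in which the authors' score is the −log10 of a q-value (lowest deposited value 1.30). The submitters' processing notes name FastQC 0.11.2, Bowtie2 2.3.3.1, Picard, MACS2 2.1.0 and hg19, and the control used for each list is not given in the sources used here. A further 12 input and histone H3 libraries were not analysed here. The score depends on depth, which is unknown, so it was used only as a rank within a list, ties sharing their mean rank. Start sites were those of GENCODE release 44 lifted to GRCh37, and sequence was read from GRCh37. At most 19 summits a list, on chromosome Y and the mitochondrial genome, were left out. Members and gene lists were chosen with earlier results of these data known.

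Regions, shares and motifs were computed in Python 3.11.15 (pandas 2.3.3, scipy 1.17.1), and limma 3.58.1 (R 4.3.3) was fitted to normal scores with Benjamini-Hochberg adjustment. The merging and the limma step were tested on simulated data. The genes named were the 8 best-ranked members, up to 5 lost, gained or most changed members of a mark, up to 4 examples of a gene list, and the 3 members on either side of the window's edge. Others are said to be chosen after their values were seen. Alternatives were extensions of 250 and 1000 bp, windows of 500 and 3000 bp, coding start sites only, the better-ranked 50% of peaks, either replicate, lists of equal length, log2 scores, the replicate number as a block and each library left out. The RE1 search, the motif windows of single replicates the medians without chromosome 11 and the places in the list were added after seeing the data. No sequence on chromosome 8 was printed.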

Additional observations from a re-analysis of the deposited data

How the results depend on the processing

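The number of members was 2465 with the better-ranked 50% of each list and 8224 with a summit of either replicate, and stayed within 1.5 times of 5420 under the other choices, with 6646 and 6891 from single replicates. The share of members with a peak in both parental libraries moved by more than the replicate SD but stayed high. For Pol II it was 96.6% with an extension of 250 bp, 99.1% with 1000 bp and 90.1% with the better-ranked 50% of each list, and 99.1% to 99.3% in single replicates. H3K4me3 gave 95.8%, 99.9%, 97.8% and 99.7% to 99.8%, and H3K9Ac 94.9%, 99.7%, 98.7% and 99.5% in either replicate.

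Pol II losses at members were 23 with 250 bp, 1 with the better-ranked 50% and 29 with lists of equal length, and 18 to 124 with a library left out. Pol II gains were 29 with 250 bp, 1 with 1000 bp, 1 with the better-ranked 50% and 3 to 6 with a library left out. H3K4me3 losses and gains were 4 and 9 with 250 bp, and 0 to 1 and 0 to 4 with a library left out. H3K9Ac losses were 8 with 250 bp, 0 with 1000 bp and 1 to 8 with a library left out, and gains were 14, 0 and 4 to 7, with 1 gain among the better-ranked 50%. The cause was not tested, apart from the shorter reach of a mark under the smaller extension, which is part of that choice. Losses and gains over all promoter regions are not given for these settings.

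Members called by limma were 0 to 8 higher and 0 to 29 lower for Pol II with a library left out (0% to 0.706% of members, against 0% to 0.897% of all regions), and 0 for both histone marks. The replicate number as a block gave 0 calls at members in each mark. The replicate numbers did not pair the libraries, as the deviations of same-numbered libraries correlated at 0.013 (Pol II), -0.016 (H3K4me3) and -0.018 (H3K9Ac). The change of the median rank at members ranged with a library left out from -0.72 to 1.16 points (Pol II), from -0.29 to 1.53 (H3K4me3, also -0.038) and from 0.20 to 0.43 (H3K9Ac), and was -0.23 for Pol II without SAP30-KO1 replicate 2. Without chromosome 11 it was -0.18 (Pol II), 0.087 (H3K4me3) and 0.12 (H3K9Ac). By place in the list, as a share of the mean list length and chosen after seeing the data, it was 1.01 (Pol II), -0.36 (H3K4me3) and -0.26 (H3K9Ac), since the lists differ in length. The lead of members over promoters with SAP30 and SIN3B kept its direction with both extensions. With 2 libraries a line and no depth, changes in amount cannot be measured here.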
